A study of Mus musculus with 8 samples.

Results

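The cytokine group described here is interleukin-1 and interleukin-6 signalling with its SOCS inhibitors, measured in cumulus cells of the mouse, which enclose the oocyte within the follicle. Its members are all probe sets whose gene symbol is exactly Il6, Lif, Il1b, Il1r1, Il1rn, Il6st, Socs2, Socs3 or Saa3. These 9 symbols gave 10 probe sets for 8 genes, of 12422 probe sets tested and 8251 named genes. Il6st and Socs3 had 2 each, and no probe set carried the symbol Lif, so Lif is not analysed here. No filter on low values was applied, so all 10 entered every test.

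The samples came from EP2KO mice, which are Ptger2(-/-) and lack EP2, a receptor for prostaglandin E2, and from WT mice, both female and of the C57Bl/6 strain. All mice, aged 3 to 4 weeks, had been given 5 IU of PMSG, a stimulus of follicle growth. The mice of the 3, 9 and 14 h groups then received 5 IU of hCG, which stands in for the ovulatory LH surge, 48 h after PMSG. The 0 h groups are labelled as not treated with hCG. Each genotype had 1 array at each of the 4 times, so there are 8 arrays and no replicates. The 14 h cells came from ovulated complexes in the oviduct and were freed with hyaluronidase, while earlier cells were dissected from ovarian follicles. Stage and collection therefore cannot be told apart at 14 h. The labels do not say how many animals gave the cells of an array, nor that arrays came from separate animals. The p-values therefore measure only the spread among these arrays. That spread may be technical, and it also holds differences between the genotypes in their response to hCG.

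Interleukin-1 beta is an inflammatory cytokine that acts through the receptor encoded by Il1r1, and the protein of Il1rn occupies the same receptor without activating it. Interleukin-6 and LIF signal through the shared receptor subunit gp130, encoded by Il6st, which activates JAK kinases and the transcription factor STAT3. SOCS3 is induced by STAT3 and blocks gp130 signalling, while SOCS2 is best known for restraining growth hormone signalling. Saa3 encodes a serum amyloid A protein made outside the liver in inflammation. Interleukin-1 and interleukin-6 are among the cytokines that follicles are known to make around ovulation.

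Values are log2 signals, so a difference of 1 is 2-fold. Standard errors (SE) come from limma, which estimated the spread of a probe set over all 8 arrays and moderated it. The note "2 arrays a time" gives the number of arrays averaged, not the source of that spread. Array medians lay between 7.79 and 7.89, and the arrays of both genotypes at the same time correlated across probe sets with r of 0.9927 to 0.9946. Ptger2 itself read 4.57, 4.24, 4.69 and 4.51 in EP2KO at 0, 3, 9 and 14 h, against 4.95, 5.97, 5.37 and 5.33 in WT. It was lower in EP2KO at all 4 times, at a low signal throughout, and where its probes lie relative to the deleted sequence was not examined. The cumulus label was checked against markers of the granulosa lineage. Inha, an inhibin subunit, read 12.34 to 14.37 in EP2KO and 12.7 to 14.22 in WT, and Has2, the hyaluronan synthase, stood at 11.03 in EP2KO and 11.73 in WT at 3 h. At 14 h against 0 h, 8 of the 15 measured markers fell, among them Inhbb at −5.425, Hsd17b1 at −3.62, Esr2 at −2.71 and Inha at −1.775. The 4 that rose were Ptgs2 at 5.135, Tnfaip6 at 3.72, Ptx3 at 1.85 and Ereg at 1.235. Has2 was back at 7.45 in EP2KO and 7.39 in WT. The summed linear signal of the 15 was 15471 in EP2KO and 18241 in WT at 14 h, against 58623 in EP2KO and 51882 in WT at 0 h. The 3' minus 5' difference of the Gapdh control probe sets, which grows as RNA or its amplified product shortens, was 2.82 in EP2KO and 2.87 in WT at 14 h. In the 6 earlier arrays it was 0.96 to 1.48 in EP2KO and 0.8 to 1.86 in WT. The Actb control probe sets differed less, by 1.37 in EP2KO and 1.61 in WT at 14 h. Their difference at 9 h was 1.12 in EP2KO and 1.54 in WT. At 0 and 3 h it was 0.69 and 0.76 in EP2KO and 0.97 and 0.73 in WT.

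Promoter sequence is shown for 4 members whose signals moved after hCG in different ways: Saa3 and Il1b, which were high at 14 h, Socs3, whose 2 probe sets disagreed, and Il6, the weakest signal. Each line holds the 250 bases before the RefSeq start in GRCm38.p6, 5' to 3' on the gene's strand. Saa3 lies at chr7:46715677-46715926 and Il1b at chr2:129371140-129371389, both on the minus strand. Socs3 lies at chr11:117969367-117969616 on the minus strand and Il6 at chr5:30012864-30013113 on the plus strand. Capitals mark matches on either strand to 5 motifs.
Saa3: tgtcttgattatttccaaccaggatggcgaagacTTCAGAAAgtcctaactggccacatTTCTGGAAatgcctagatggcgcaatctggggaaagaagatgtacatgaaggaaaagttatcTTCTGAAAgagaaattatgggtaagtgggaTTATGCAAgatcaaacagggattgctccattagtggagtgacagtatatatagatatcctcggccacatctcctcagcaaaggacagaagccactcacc
Il1b: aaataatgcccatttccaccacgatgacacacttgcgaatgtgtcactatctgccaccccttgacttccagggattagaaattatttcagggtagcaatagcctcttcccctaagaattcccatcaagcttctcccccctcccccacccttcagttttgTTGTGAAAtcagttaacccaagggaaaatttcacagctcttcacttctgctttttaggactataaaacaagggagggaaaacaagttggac
Socs3: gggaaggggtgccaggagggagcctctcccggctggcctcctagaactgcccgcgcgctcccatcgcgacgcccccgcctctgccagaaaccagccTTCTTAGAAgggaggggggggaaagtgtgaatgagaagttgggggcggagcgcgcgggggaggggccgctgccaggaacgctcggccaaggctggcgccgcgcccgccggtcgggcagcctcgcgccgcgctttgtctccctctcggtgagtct
Il6: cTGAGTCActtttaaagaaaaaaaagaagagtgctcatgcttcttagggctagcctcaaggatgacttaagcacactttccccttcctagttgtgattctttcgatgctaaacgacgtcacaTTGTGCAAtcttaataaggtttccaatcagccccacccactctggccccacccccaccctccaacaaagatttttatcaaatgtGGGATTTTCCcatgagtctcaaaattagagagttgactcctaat
The motifs were GGG, any 2 bases and TTTCC for NF-kappaB, TTCNNNGAA for STAT, TTNNGNAA for C/EBP, TGANTCA for AP-1 and TGACGTCA for the cAMP response element. Of 32851 mouse promoter windows of this length, 1.41% held the NF-kappaB, 7.02% the STAT, 36.8% the C/EBP, 6.75% the AP-1 and 1.55% the cAMP motif. The Saa3 window held 4 C/EBP matches and the Il1b window 1, while Socs3 held 1 STAT match, TTCTTAGAA, 154 to 146 bases before its start. The Il6 window held 1 match each for NF-kappaB (GGGATTTTCC, 44 to 35 bases before the start), C/EBP and AP-1, the AP-1 match lying farthest out. Windows were found for 8 of the 9 symbols, 11 in all with alternative starts. Il1rn had 3 windows, 1 of which held an NF-kappaB match, and the Il6st window held none of the 5 motifs. A match describes these letters only and says nothing of binding.

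Among the ligands, Il1b was flat through the follicular stages and high after ovulation. It read 6.31, 6.37, 6.4 and 7.58 in EP2KO at 0, 3, 9 and 14 h, against 6.62, 6.35, 6.48 and 7.19 in WT. Both 14 h arrays lay above all 6 earlier ones. Over both genotypes Il1b was 0.92 ± 0.158 higher at 14 h than at 0 h (SE over 2 arrays a time; limma, adjusted p = 0.00139), a 1.892-fold rise, and 0.945 higher than at 9 h (limma, adjusted p = 0.0017). With only the 4 arrays of 14 and 9 h in the fit, the second call ended (limma, adjusted p = 0.0705). A change in these bulk samples can come from more cells of a type or from more RNA per cell, which cannot be told apart.

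Il6 was among the weakest signals on the arrays, with a mean of 5.23 that lay at the 9.8th percentile of probe sets. It read 5.03, 4.81, 5.59 and 5.76 in EP2KO at 0, 3, 9 and 14 h, against 4.72, 5.15, 5.66 and 5.09 in WT. Both 9 h arrays were above all 4 arrays of 0 and 3 h, and at 14 h the genotypes stood apart, EP2KO high and WT near its 3 h value. At 9 h Il6 was 0.75 ± 0.202 higher than at 0 h (SE over 2 arrays a time; limma, adjusted p = 0.0236) and 0.645 higher than at 3 h (limma, adjusted p = 0.0491). The rise over 0 h did not pass without the WT 0 h, WT 9 h or EP2KO 0 h array (0.638, 0.608 and 0.862). The rise over 3 h passed in only 5 of 12 alternative settings. It ended after median centring of the arrays (limma, adjusted p = 0.0814) and after quantile normalization (limma, adjusted p = 0.0879). It also ended without either 0 h array, either 9 h array or the EP2KO 3 h array, the last giving 0.323. At 14 h Il6 stood 0.55 above 0 h and did not pass (limma, adjusted p = 0.0673), but it passed in 5 of 11 alternative settings. These were quantile normalization, at 0.653, and the fit of only the 4 arrays compared, at 0.55. The others left out the WT 3 h or EP2KO 3 h array, at 0.55 in each case, or the WT 14 h array, at 0.902.

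Il1rn, the receptor antagonist, followed a course much like that of Il1b. It read 6.44, 6.35, 6.27 and 7.71 in EP2KO at 0, 3, 9 and 14 h, against 6.31, 6.16, 6.4 and 7.5 in WT. The 14 h arrays of both genotypes stood more than 1 unit above every earlier array. Its rise was 1.23 ± 0.126 over 0 h (SE over 2 arrays a time; limma, adjusted p = 5.12e-05) and 1.27 over 9 h (limma, adjusted p = 7.48e-05). Agonist and antagonist transcripts were thus both higher after ovulation, and their levels cannot be set against each other because probe sets differ in brightness.

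Il1r1, the signalling receptor for interleukin-1, had 2 high points separated by a dip. It read 8.81, 10.51, 9.44 and 10.9 in EP2KO at 0, 3, 9 and 14 h, against 8.09, 10.91, 9.38 and 10.9 in WT. The 3 and 14 h arrays were all at 10.51 or higher, the 9 h arrays lay between, and the 0 h arrays were lowest. The rise at 3 h was 2.26 ± 0.21 (SE over 2 arrays a time; limma, adjusted p = 8.11e-05), a 4.79-fold change, with 1.7 in EP2KO and 2.82 in WT. Il1r1 then fell by 1.3 between 3 and 9 h (limma, adjusted p = 0.0027) and was 1.49 higher at 14 h than at 9 h (limma, adjusted p = 6.11e-04). At 9 h it was still 0.96 above 0 h (limma, adjusted p = 0.0088), which was 0.543 and no longer passed without the WT 0 h array.

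Il6st, which encodes gp130, changed little. Probe set 94345_at read 8.14, 8.43, 8.16 and 7.86 in EP2KO at 0, 3, 9 and 14 h, against 8, 8.48, 8.2 and 7.73 in WT. Both genotypes were highest at 3 h and lowest at 14 h. It rose by 0.385 ± 0.118 at 3 h (SE over 2 arrays a time; limma, adjusted p = 0.0255) and fell by 0.385 between 9 and 14 h (limma, adjusted p = 0.0436). The first call ended without the WT 0 h or WT 3 h array, at 0.322 in each case. The second did not pass without any 1 of 6 arrays, at −0.328 to −0.442, those of 0, 9 and 14 h in both genotypes. The second probe set, 98349_at, ranged over only 0.22 across the 8 arrays and was called in no contrast, so the 2 probe sets of Il6st differ in what they show.

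Of the inhibitors, Socs2 fell, while Socs3 rose by 1 of its 2 probe sets and was not called by the other. Socs2 was among the brightest probe sets, at the 98.6th percentile of mean signal, and read 12.71, 12.4, 12 and 10.78 in EP2KO at 0, 3, 9 and 14 h, against 12.53, 12.43, 11.96 and 10.78 in WT. Its level was lower at each later time in both genotypes, and the genotypes were equal at 14 h. Socs2 fell by 0.64 ± 0.117 at 9 h (SE over 2 arrays a time; limma, adjusted p = 0.00339) and by 1.84 ± 0.117 at 14 h against 0 h (limma, adjusted p = 2e-06), to 0.2793 of its 0 h signal. Most of that fall, 1.2, came between 9 and 14 h (limma, adjusted p = 6.58e-05). At 3 h it stood at −0.205 and did not pass (limma, adjusted p = 0.176), whereas after quantile normalization it stood at −0.645 and passed. The fall of 0.435 between 3 and 9 h passed (limma, adjusted p = 0.0273) but was −0.267 and did not pass after quantile normalization. It also did not pass without the WT 3 h, WT 9 h or EP2KO 9 h array, at −0.383, −0.44 and −0.43.

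Socs3 gave an answer that depends on the probe set. Probe set 162206_f_at read 7.35, 7.58, 8.79 and 9.05 in EP2KO at 0, 3, 9 and 14 h, against 7.25, 7.63, 9.27 and 8.85 in WT. The 9 and 14 h arrays stood above the 0 and 3 h arrays in both genotypes. It rose by 1.73 ± 0.16 at 9 h (SE over 2 arrays a time; limma, adjusted p = 6.34e-05) and was 1.65 above 0 h at 14 h (limma, adjusted p = 3.44e-05), while at 3 h its 0.305 did not pass (limma, adjusted p = 0.145). Most of the rise, 1.425, fell between 3 and 9 h (limma, adjusted p = 4.83e-04). The suffix f marks a probe set whose probes may also match other transcripts, and the platform table pairs it with no accession. The other probe set, 92232_at, is tied to the Socs3 mRNA record and ranged over 0.54. It read 7.96, 7.75, 8.16 and 8.29 in EP2KO at 0, 3, 9 and 14 h, against 7.99, 7.9, 8.28 and 7.93 in WT, and it was called in no contrast. Its largest change, 0.395 between 3 and 9 h, missed the threshold (limma, adjusted p = 0.0783). It passed when the WT 14 h, the EP2KO 14 h or both 14 h arrays were left out, each time with adjusted p = 0.0404 in limma.

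Saa3, the acute phase target, had the largest change of the group. It read 7.25, 7.14, 7.26 and 10.48 in EP2KO at 0, 3, 9 and 14 h, against 6.92, 6.9, 7.4 and 9.97 in WT. All 6 follicular arrays lay between 6.9 and 7.4, and both ovulated arrays were at least 2.57 units above them. At 14 h Saa3 was 3.14 ± 0.153 above 0 h (SE over 2 arrays a time; limma, adjusted p = 4.27e-07), an 8.815-fold difference. Against 9 h it was 2.895 higher (limma, adjusted p = 2.98e-06), which ranked 11 among the 12422 probe sets by p.

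**Figure D1:**
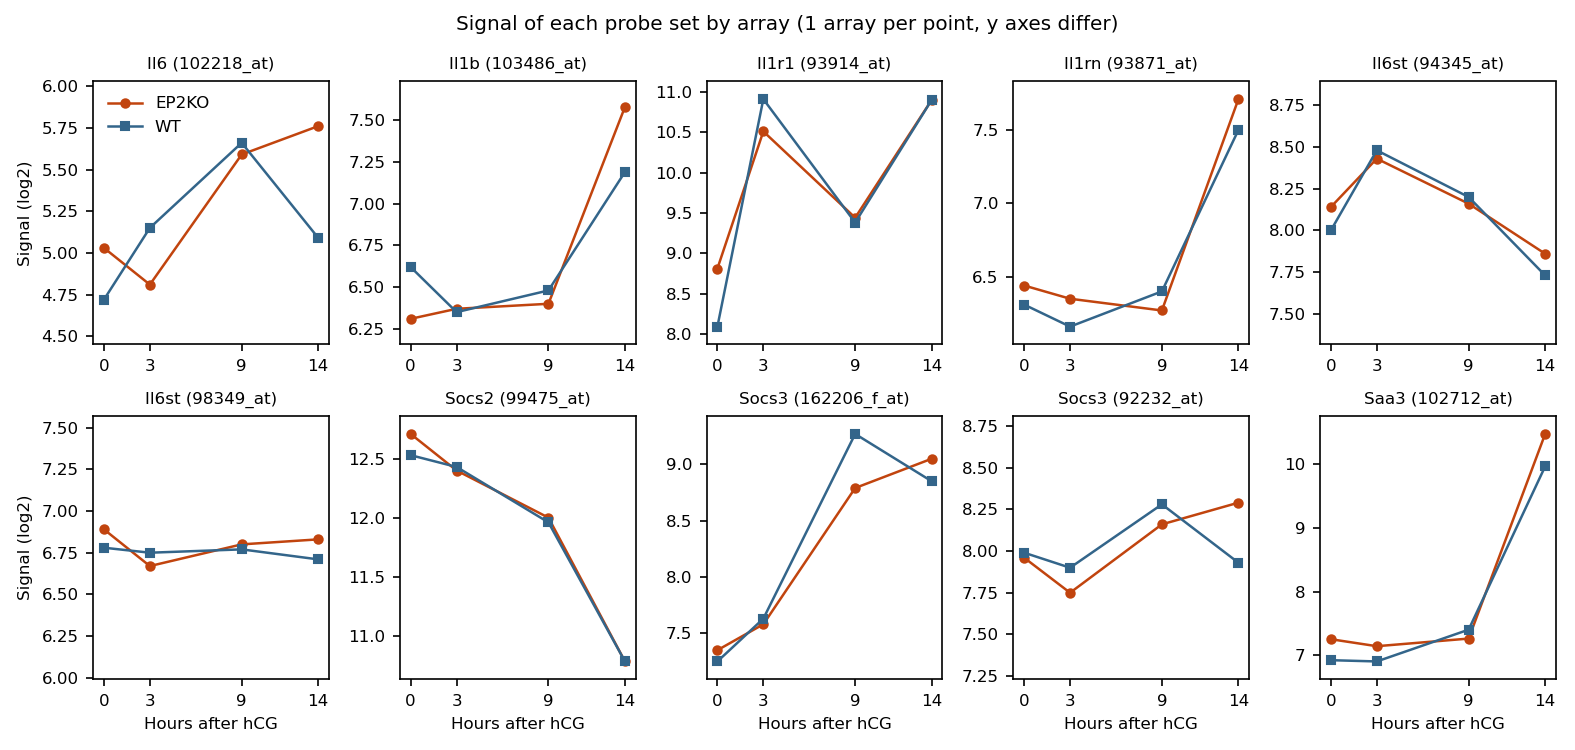
Log2 signal (y axis, scaled per panel) against hours after hCG (x axis) for the 10 probe sets, with EP2KO as circles and WT as squares, 1 array per point and no error bars. Il1b, Il1rn and Saa3 are high only at 14 h among the times measured, Il1r1 peaks at 3 and 14 h, Socs2 declines to 10.78 in both genotypes, and the 2 probe sets of Socs3 and of Il6st differ.

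Counted over the group, 2 of the 10 probe sets passed at 3 h against 0 h, both higher (limma), beside 42.8% of all probe sets called, 17.4% higher and 25.4% lower. At 9 h against 0 h 3 rose and 1 fell, beside 23% of all called, 10.9% higher and 12.1% lower. At 14 h against 0 h 5 rose and 1 fell, beside 28.8% called, 13.5% higher and 15.2% lower. Between 3 and 9 h 2 rose and 2 fell, beside 19.4% called, 7.59% higher and 11.8% lower. Between 9 and 14 h 4 rose and 2 fell, beside 20.1% called, 10% higher and 10.1% lower. In total calls the 3 h share of the members lies below that of all probe sets. The split shares differ: 2 of 10 higher at 3 h is near the 17.4% of all, and 1 of 10 lower at 14 h against 0 h is below the 15.2% of all. The median log2 change of the 10 probe sets at 14 h against 0 h was 0.735, while the median of all probe sets was −0.06. At 3 h these medians were −0.085 and −0.135, and centring the arrays did not change which members were called there.

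**Figure D2:**
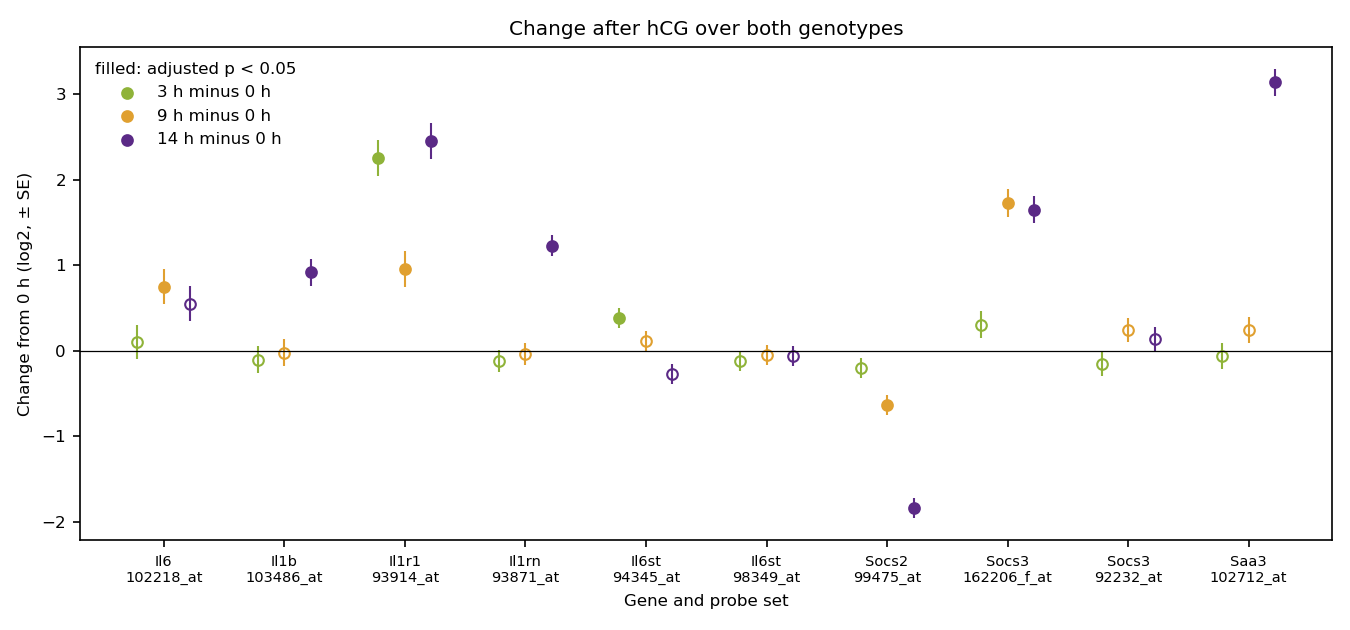
Log2 change from 0 h (y axis) at 3, 9 and 14 h for each probe set (x axis), as estimates over both genotypes with standard errors from limma. Filled points passed an adjusted p of 0.05: the largest is Saa3 at 14 h (3.14), and Socs2 is the one that falls, at 9 and 14 h.

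Other genes of the pathways were counted from lists, each gene by its brightest probe set. The lists overlap. The counts are to be read against the 42.8%, 23% and 28.8% of all probe sets called at 3, 9 and 14 h against 0 h. The list of interleukin-1 family ligands and antagonists also held the protease gene Casp1. Of its 7 measured genes, Il1b and Il1rn rose at 14 h against 0 h, none fell and 5 did not pass (28.6% called). Il1a, which encodes interleukin-1 alpha, was 0.515 higher at 14 h than at 9 h (limma, adjusted p = 0.028). Of 11 measured interleukin-1 receptors and signalling genes, 4 rose and 1 fell at 14 h against 0 h (45.5%). Besides Il1r1 the risers were Il1r2, a decoy receptor that binds interleukin-1 without signalling, at 1.03 ± 0.147, Tollip, an inhibitory adaptor, at 0.58 and Traf6, a ubiquitin ligase of the pathway, at 0.475. The Il1r2 probe set carries the suffix f described for Socs3, so its probes may also match other transcripts. Map3k7, the kinase TAK1, fell by 0.805. At 3 h Il1r1 was the 1 gene of this list that rose and 2 fell. At 9 h Il1r1 rose and Map3k7 fell.

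Of 12 measured NF-kappaB subunits and inhibitors, 4 rose and none fell at 14 h against 0 h. They were Nfkb2 at 0.795, Relb at 0.585, Rela at 0.45 and Bcl3 at 0.445. This share of 33.3%, all higher, is near the 28.8% of all probe sets called and above the 13.5% called higher. Nfkbia, which encodes the inhibitor IkappaB alpha, rose earlier, by 0.86 at 3 h and 0.93 at 9 h against 0 h, and fell by 0.585 between 9 and 14 h. Of 22 measured target genes of interleukin-1 and NF-kappaB, 3 rose and 7 fell at 3 h, and 5 rose and none fell at 14 h against 0 h. The share at 3 h, 45.5%, is near the 42.8% of all probe sets called. The 22.7% at 14 h, all higher, is below the 28.8% of all called and above the 13.5% called higher. The 14 h risers were Ptgs2, the inducible cyclooxygenase, at 5.135, Ier3, an immediate early gene, at 4.33, the chemokine genes Ccl2 at 1.66 and Cxcl2 at 1.425, and Zfp36, an mRNA decay factor, at 1.02. Ptgs2 and Ier3 were already up at 3 h, while Cxcl2 and Ccl2 were called at 14 h alone among these times against 0 h.

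Of 4 measured interleukin-6 family ligands, Il11 rose by 0.51 and Ctf1, cardiotrophin 1, fell by 0.47 at 3 h. Il6 rose at 9 h, and none was called at 14 h against 0 h. Of 6 receptors of the family, Osmr, the oncostatin M receptor that pairs with gp130, rose by 1.22 ± 0.182 at 14 h against 0 h (SE over 2 arrays a time; limma, adjusted p = 5.67e-04). It had fallen by 0.51 at 3 h and risen by 0.695 at 9 h. Cntfr, the ciliary neurotrophic factor receptor, fell by 0.515 at 14 h. Il6ra, which binds interleukin-6 itself, read 7.77, 7.73, 8.07 and 8.19 in EP2KO at 0, 3, 9 and 14 h, against 7.83, 7.94, 8.29 and 8.08 in WT and was called at no time against 0 h.

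Of 9 measured JAK and STAT genes, 3 rose and 1 fell at 14 h against 0 h (44.4%). Stat6 rose by 1.13, Jak2 by 0.945 and Stat3 by 0.66, and Jak1 fell by 0.955. Of 12 SOCS family members and other inhibitors, 2 rose and 4 fell (50%). Socs3 counts as a riser here by 162206_f_at, while its other probe set, 92232_at, stood at 0.135 and was not called. Besides the members, Ptpn1 and Ptpn2, phosphatases that act on JAK kinases, fell by 1.14 and 0.83, Socs1 fell by 0.415 and Pias1 rose by 0.6. Of 16 target genes of STAT3, 11 rose and none fell at 14 h (68.8%), with a median of 0.595 against −0.045 for all genes. The largest were Timp1, a metalloprotease inhibitor, at 2.795, Myc at 1.78, Socs3 by the probe set above and Junb at 1.17. At 3 h 5 of the 16 rose and 5 fell. Of 21 acute phase genes, 4 rose and none fell at 14 h against 0 h (19%), with Saa3 and Ptx3, a pentraxin of the cumulus matrix, at 3.14 and 1.85, Hp, haptoglobin, at 0.555 and Lrg1 at 0.38. Ptx3 stood at 4.42 above 0 h at 3 h, when 9 others of that list had fallen, and its course thus differed from that of Saa3.

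Some markers of leukocytes and of the oviduct also rose at 14 h. Of 39 measured leukocyte markers, 11 rose and 1 fell at 14 h against 0 h, 30.8% called. Of all probe sets 28.8% were called there, 13.5% higher and 15.2% lower. Against 9 h 12 markers rose and none fell (30.8%), beside 20.1% of all probe sets, 10% higher and 10.1% lower. The largest rises over 9 h were S100a8, a granulocyte calcium-binding protein, at 2.125, Cd53, a tetraspanin of leukocytes, at 2.1, Lyz2, lysozyme of myeloid cells, at 1.755 and S100a9 at 1.51. The summed linear signal of the 39 markers was 12259 in EP2KO and 9700 in WT at 14 h, against 6719 to 8160 in EP2KO and 6402 to 8719 in WT at the earlier times. None of the 39 read 0, the lowest at 14 h being 4.46 in EP2KO and 4.43 in WT. Ptprc, the pan-leukocyte marker CD45, read 5.65 in EP2KO and 5.61 in WT at 14 h, within its range of 5.53 to 5.86 over the other 6 arrays. Of 12 oviduct epithelium markers, 4 rose and 1 fell at 14 h against 0 h (41.7% called), and Ovgp1, the oviduct glycoprotein, rose by 3.645. Their summed signal was 6375 in EP2KO and 5325 in WT at 14 h, against 2746 to 2985 in EP2KO and 2805 to 3100 in WT earlier. The lowest of the 12 read 5.46 in EP2KO and 5.2 in WT at 14 h. Of 10 theca and stroma markers 1 rose at 14 h against 0 h (10%). That marker was Star, at 2.125, which had stood higher before, at 4.11 at 3 h and 3.45 at 9 h against 0 h. Of 9 endothelium markers 1 rose and 1 fell (22.2%), and of 9 oocyte markers limma called none. The part of these cells and of the granulosa marker changes in the 14 h rises of Saa3, Il1b, Il1rn and Il1r1 was not tested. That of the RNA quality given above and of the collection method was not tested either.

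**Figure D3:**
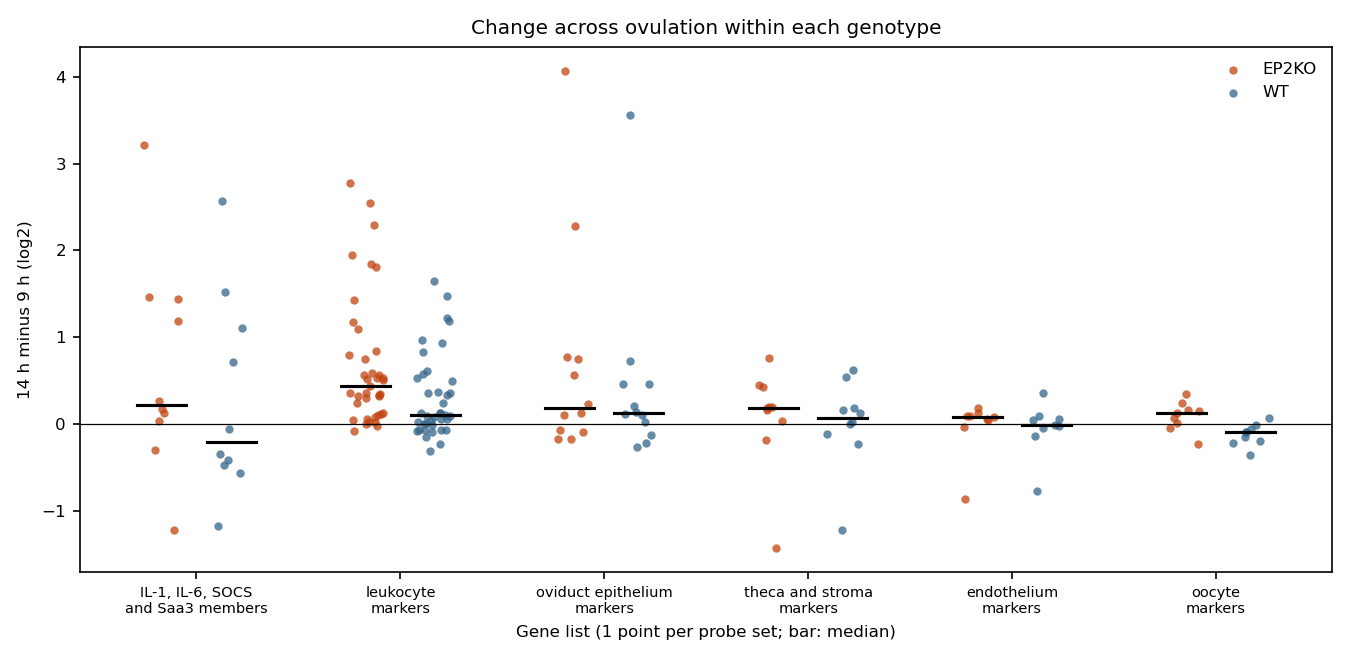
Difference in log2 signal between 14 h and 9 h (y axis) within EP2KO (left of each pair) and WT for the 10 member probe sets and for marker genes of other cell types (x axis), 1 point per probe set with the median as a bar. Saa3 is the highest member at 3.22 in EP2KO and 2.57 in WT, above every leukocyte marker in the same genotype, and Ovgp1, the top oviduct point, is higher still in both.

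The comparison of EP2KO with WT asks whether loss of EP2 alters these genes. Over the 4 times limma called none of the 10 probe sets, nor any of the 12422 (0%), and at an unadjusted p under 0.05 there were 0 of the 10 and 642 of all. The largest of the 10 differences was that of Saa3, at 0.235 (95% interval −0.01 to 0.48), with EP2KO higher at 3 of 4 times. For Il1b it was 0.005 (95% interval −0.24 to 0.25), for Il1r1 0.095 (−0.23 to 0.42) and for Socs2 0.048 (−0.14 to 0.23). These intervals bound an average over the times and do not show that the genotypes act alike at each.

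At single times the differences rest on 1 array per genotype and carry no test. The largest of the group was Il1r1 at 0 h, 8.81 in EP2KO against 8.09 in WT, a difference of 0.72 that exceeds 99.8% of all probe sets in size at that time. At 14 h Il6 was 0.67 higher in EP2KO, Saa3 0.51 and Il1b 0.39, at the 98.8th, 96.7th and 92.4th percentile of absolute difference. None of the 40 single-time differences reached 1, which 0.0403% to 0.467% of all probe sets did. At 14 h 35 of the 39 leukocyte markers were also higher in EP2KO, with a median difference of 0.24, against 8 of 39 at 0 h, 23 at 3 h and 10 at 9 h. The part of that shift in the 14 h differences of Il6, Saa3 and Il1b was not tested.

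Whether the EP2KO minus WT difference at 1 time departed from that at the other times was tested for 3, 9 and 14 h. Limma called none of the 10 probe sets in any of these, beside 0%, 0% and 0.0805% of all probe sets, the last made up of 0.0644% higher and 0.0161% lower. Of the listed genes, the 14 h test called 1 of 22 interleukin-1 and NF-kappaB targets and 1 of 12 oviduct markers, both higher. The oviduct marker was Krt18, a keratin gene, with a departure of 1.76. After median centring of the arrays the 14 h test called 0 of all probe sets. At an unadjusted p under 0.05 there were 2 members at 3 h, 1 at 9 h and 3 at 14 h, against 891, 131 and 865 of all. At 14 h these were Il6, with a departure of 0.703 (95% interval 0.14 to 1.27; limma, adjusted p = 0.594), Il1b at 0.513 (0.05 to 0.98; adjusted p = 0.673) and Socs3 92232_at at 0.46 (0.03 to 0.89; adjusted p = 0.68). At 3 h they were Il1r1 at −0.66 (−1.3 to −0.02) and Il6 at −0.643 (−1.25 to −0.03), both with adjusted p = 0.689 in limma. At 3 h 8 of the 9 oocyte markers were higher in EP2KO, with a median difference of 0.4, against 1 of 9 at 0 h, 1 at 9 h and 9 at 14 h, where the median was 0.09. The largest departure among them at 3 h was that of Zp3, a zona pellucida gene, at 1.32 (limma, adjusted p = 0.196). The part of this shift in the 3 h values of Il1r1 and Il6 was not tested. At 9 h it was Socs3 162206_f_at at −0.563 (−1.07 to −0.06; limma, adjusted p = 0.999). On simulated arrays the 14 h test recovered 0% of 200 probe sets changed by 1 log2 unit and 76% of those changed by 2, and all departures of the members were smaller than 1.

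**Figure D4:**
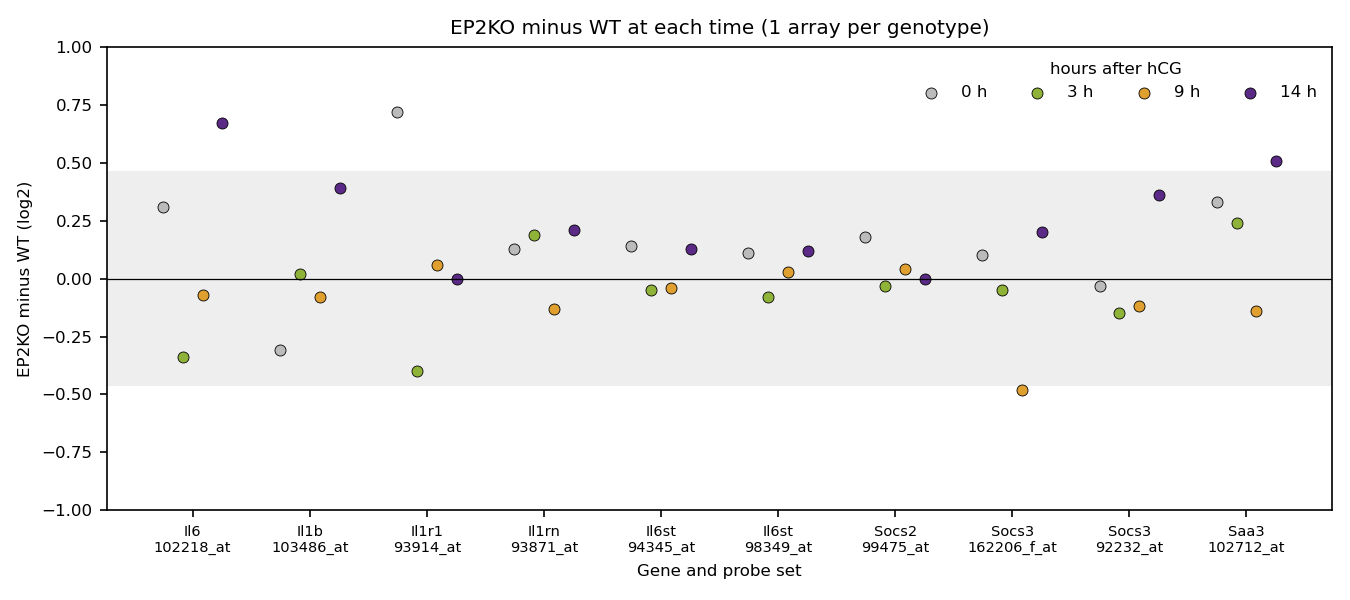
EP2KO minus WT in log2 signal (y axis) for each probe set (x axis) at 0, 3, 9 and 14 h, 1 array per genotype. The grey band spans ± 0.46, the widest of the 4 single-time limits that hold 95% of all probe sets. Il1r1 at 0 h (0.72), Il6 (0.67) and Saa3 (0.51) at 14 h and Socs3 162206_f_at at 9 h (−0.48) lie outside it.

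The genes whose course was most like that of each member were ranked by Pearson's r over the 8 arrays among 2855 probe sets that ranged over at least 1 unit. The arrays share times and stage, so these values describe and do not test. Closest to Saa3 were Gm2a (r = 0.9961), Ctsd (0.9955) and Il1rn (0.9946), and closest to Il1rn were Ptpn22 (0.997), Saa3 and Slc4a3 (0.9944). Il1b ran closest to Cxcl2 (0.9897), Plet1 (0.9892) and Tinagl1 (0.9882), and Il1r1 to H2-K1 (0.9859), Minpp1 (0.9834) and Ext2 (0.9793). Socs2 ran closest to Tpgs2 (0.9939), Dab2 (0.9918) and Rnaseh2b (0.9859). Socs3 162206_f_at ran closest to Actb (0.9883), Emp3 (0.9853) and Cd47 (0.9844), the first 2 through probe sets that also carry the suffix f. The probe sets of H2-K1, Tpgs2 and Atf3, partners of other members, carry it too. Il6 had no partner above 0.93, the nearest being Crip1 (0.9278), Atf3 (0.9036) and Entpd1 (0.8838). Il6st did not reach a range of 1 and was not ranked.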

How the data were processed

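Expression was measured on Affymetrix MG_U74Av2 arrays, 1 per genotype and time. Per the submitters' processing notes the authors used RMA (no version named there), and the deposited log2 values were taken without further scaling. Of 12488 probe sets, 66 controls were left out and 12422 tested, with no filter on low values. Symbols come from the platform annotation (10833 probe sets with 1 symbol, 396 with several, 1193 with none), updated through gene IDs to RefSeq. The precision is limited by the number of arrays, and detection calls were not used here.

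limma 3.58.1 under R 4.3.3 gave all tests (lmFit, eBayes, two-sided). Time contrasts and EP2KO against WT came from a fit of time plus genotype over 8 arrays (3 residual degrees of freedom, prior 7.24). Departures added the interaction of genotype with 1 time (2 residual degrees of freedom). P values were adjusted by Benjamini-Hochberg over all 12422 probe sets of each contrast. The threshold was 0.05, and "rose" and "fell" mean passing it. On simulated data the 3 h against 0 h test recovered 68% of 200 probe sets changed by 1 log2 unit and 98% of those changed by 2.

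The members and lists were chosen with earlier results of these data known. All member probe sets are named. Called list genes of largest change, up to 4 per list and contrast, were to be named too. Not all of them are, as in the oviduct and endothelium lists. Some genes named beyond these were chosen after their values were seen: Il6ra, Ptprc, Traf6, Zfp36, Pias1, Socs1, Inha, Has2, Esr2, Ereg and Zp3. Alternatives were median centring, quantile normalization, leaving out the lowest 40% of probe sets, using only the arrays compared and leaving out each array. Leaving out both 14 h arrays was chosen after seeing the data. Promoters are from RefSeq.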

Additional observations from a re-analysis of the deposited data

Results flagged for a closer look

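The changes of some members ran in opposite directions in the genotypes, each from 1 array per genotype and time, and these differences between pairs of times were not tested. For Il6 the EP2KO change minus the WT change was −0.65 at 3 h against 0 h and 0.74 at 14 h against 9 h. For Il1b it was 0.33 at 3 h and 0.23 at 9 h against 0 h, where WT was lower than at 0 h and EP2KO slightly higher. For Il1rn it was −0.26 at 9 h against 0 h and −0.32 at 9 h against 3 h. Socs3 162206_f_at gave 0.68 and Socs3 92232_at 0.48 at 14 h against 9 h, and 92232_at gave 0.39 at 14 h against 0 h. For Il6st 98349_at it was 0.09 at 14 h against 9 h.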

How the results depend on the processing

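Directions of called members held under all alternatives run: of the settings tried for the members across the 9 contrasts, 938 kept the side of the threshold, 27 lost a call, 9 gained one and none reversed. The calls lost belong to Il6 and Il1r1 at 9 h, Il6 and Socs2 between 3 and 9 h, Il6st at 3 h and between 9 and 14 h, and Il1b between 9 and 14 h. With only the 4 arrays compared, 1 member was called at 3 h instead of 2, and all calls numbered 2888 instead of 5313 at 3 h, 1257 instead of 2412 between 3 and 9 h and 699 instead of 2496 between 9 and 14 h. That fit has fewer samples. With the lowest 40% left out, which tests fewer probe sets, 3482 were called at 3 h. Quantile normalization left 2 of 4 members called between 3 and 9 h; the cause was not tested. The departure at 14 h called 10 probe sets, none a member, and 0 after median centring or with the lowest 40% left out, while the departure at 9 h called 1 with that 40% left out.

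Leaving out each array in turn gave 1 to 2 members at 3 h, 2 to 4 at 9 h, 6 to 7 at 14 h, 2 to 5 between 3 and 9 h, 5 to 6 between 9 and 14 h and 0 for every genotype contrast. Over all probe sets it gave 1897 to 5471 at 3 h, 1225 to 3036 at 9 h, 2289 to 3809 at 14 h, 489 to 2605 between 3 and 9 h, 1286 to 2668 between 9 and 14 h, 0 to 1 for EP2KO against WT, 0 at 3 h, 0 to 4 at 9 h and 0 at 14 h for the departures. In these fits a time left with 1 array takes its spread from the other times, and a departure cannot be estimated without both arrays of its time. Probe sets near the bottom of the signal range, such as Il6, have the least room above background. No analysis paired by animal was possible because the labels number no replicates and link no animals between arrays. The contrast of EP2KO with WT did pair the 2 arrays of each time, through the time term of the fit.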
